A study of Homo sapiens with 2 samples.

Results

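The genes described are 34 enzymes, regulators and carriers of cholesterol and fatty acid synthesis. They were taken by gene symbol from a fixed list, and all 34 were found among the 24462 symbols of the count tables, each on a single row. Total RNA was sequenced from undifferentiated H9 cells, a human embryonic stem cell line (hESC), and from neural precursor cells (NPC) made from H9 in co-culture with MS5, a mouse stromal feeder line, with 1 library for each. Neither group carries a stated genetic change, and for the NPC the sources name the co-culture alone, with no time, passage or second culture. The design asks in what way gene expression in the derived cells differs from that of their parent line.

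With 1 library per group there is no replicate check and no test between conditions. Every difference below is between these libraries. Each count was scaled to the effective size of its library (CPM) with factors from the trimmed mean of M-values (TMM), and ratios carry an exact 95% counting interval, which covers counting error only. A gene was called higher or lower in the NPC library when it reached 5 CPM in either library and even the less extreme end of its interval lay 2-fold or more from equality. In bulk RNA, fewer cells that express a gene and less RNA per cell cannot be told apart.

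Cells build cholesterol from acetyl-CoA through mevalonate, isoprenoid units, squalene and lanosterol. Fatty acids come from the same acetyl-CoA, which is carboxylated and condensed to palmitate and then desaturated and elongated. SREBP transcription factors, which are held in the endoplasmic reticulum by SCAP and INSIG proteins when sterols are abundant, switch on genes of both routes when sterols fall. Proliferating cells use both routes to build membranes, and the developing brain makes its own cholesterol because plasma lipoproteins hardly cross into it.

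All 3 genes of palmitate synthesis were called lower in the NPC library (median log2 ratio -2.19), as were 4 of the 18 enzyme genes of the sterol route (median -0.82), a share near that of all measured genes. Of all 34 genes, 9 were called lower and 2 higher, and 23 were not called. This is 26.5% lower and 5.88% higher, against 19.8% and 19.6% of all 13535 measured genes, of which 39.4% were called either way. With a filter at 20 CPM, which MVK and ELOVL1 missed, the same 9 and 2 genes were called, against 21.6% lower and 18.0% higher of 9377 genes. The median log2 ratio of the 34 genes was -0.71, against -0.09 for all measured genes and -0.20 for the genes that reached 20 CPM. The point ratio lay below 1 for 27 of the 34 genes. Over all measured genes this held for 7088 of 13535, and with the filter at 20 CPM for 5266 of 9377. The genes called higher, SCD5 and ELOVL2, are a desaturase and an elongase whose relatives SCD and ELOVL6 were called lower.

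The 34 genes together took 141441 of the hESC reads, 0.719% of the library (Wilson 95% interval 0.715 to 0.723%), and 92756 of the NPC reads, 0.386% (0.383 to 0.388%). Summed CPM went from 8137 to 3410, a 2.39-fold difference. On this TMM scale the CPM of all genes also summed to less in NPC, by 1.28-fold. The 2.39-fold is therefore wider than the difference in read share. The fatty acid enzymes gave most of the difference in summed CPM of the 34 genes, with 5036 CPM in hESC and 1665 CPM in NPC. The sterol enzymes summed to 2606 and 1280 CPM. The 5 regulator and carrier genes were nearly level, at 494 and 464 CPM.

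**Figure D1:**
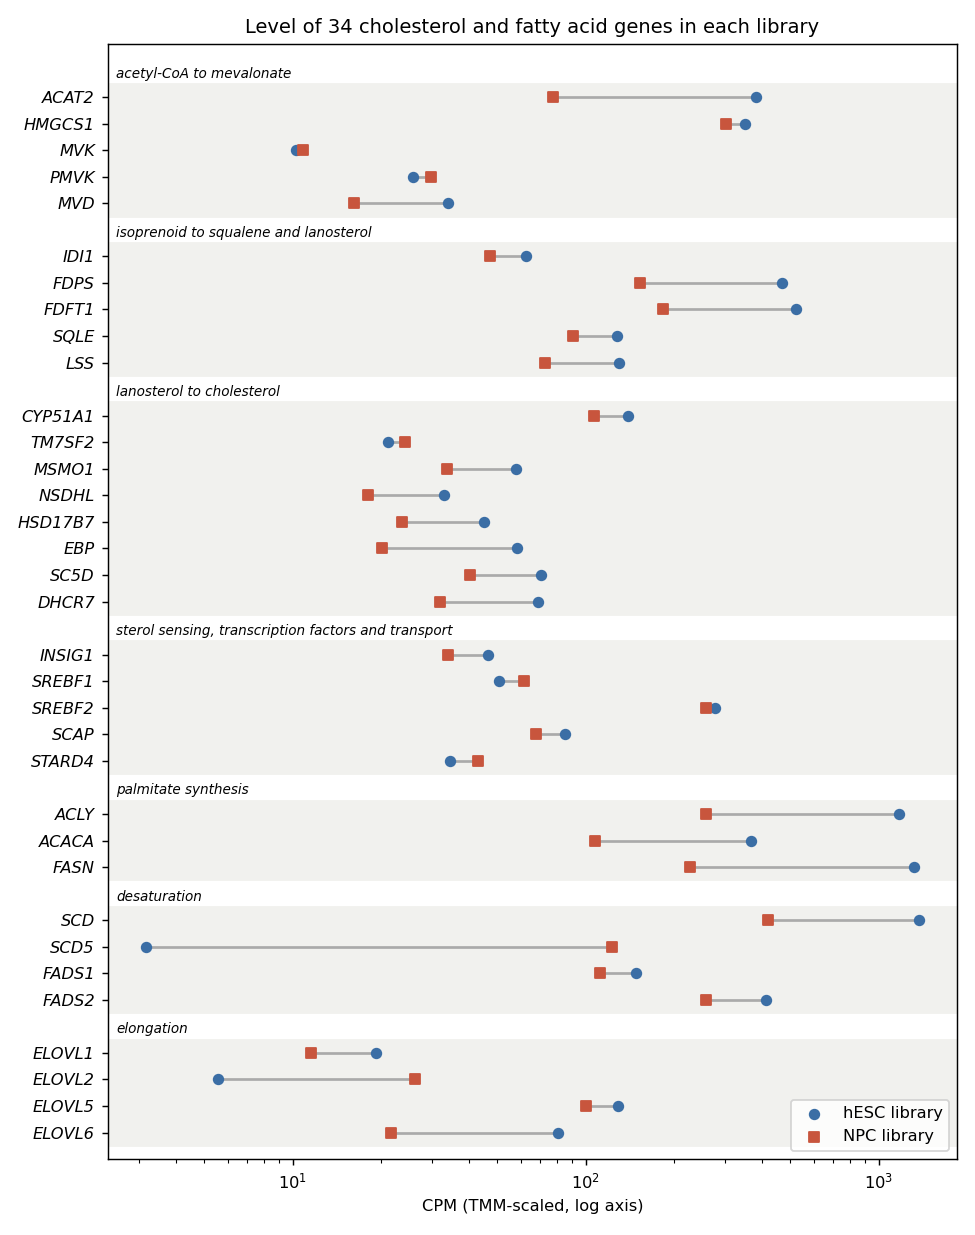
Level of the 34 genes in the hESC library (circles) and the NPC library (squares) in CPM on a log axis, grouped by their step in the pathway. The widest gap is that of SCD5, from 3.16 to 123 CPM. In 27 of 34 genes the NPC square lies left of the hESC circle, against a ratio below 1 in 7088 of all 13535 measured genes.

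The scale of the comparison depends on the normalisation. With library totals in place of TMM every log2 ratio shifts up by 0.36, the median of all measured genes becomes 0.31 and that of the 34 genes -0.35. The same 9 genes were called lower and the same 2 higher with totals. Over all genes the calls split as 2649 higher and 2683 lower with TMM (49.7% higher), and as 3679 and 1796 with totals (67.2% higher). Only HMGCS1, SREBF2 and SCAP among the 34 genes change sign with totals, to 0.13, 0.25 and 0.03.

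The step from citrate and acetyl-CoA to palmitate was the only one of the 7 groups of genes in which every member was called. ACLY, which encodes the citrate lyase that makes cytosolic acetyl-CoA, stood at 1172 CPM in hESC and at 258 CPM in NPC. Its reads numbered 20365 and 7006, although the NPC library was the deeper one. The ratio was 4.55-fold lower (4.43 to 4.68). ACACA encodes the acetyl-CoA carboxylase that commits acetyl-CoA to fatty acids. It had 366 CPM and 108 CPM and was 3.40-fold lower (3.25 to 3.55). FASN, the multifunctional fatty acid synthase gene, had 1327 CPM and 226 CPM. At 5.86-fold lower (5.70 to 6.03) it had the lowest log2 ratio of the 34 genes, -2.55. Together the 3 genes summed to 2864 CPM in hESC and 592 CPM in NPC, a 4.84-fold difference on the TMM scale.

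Desaturases introduce double bonds, and here the stearoyl-CoA desaturase paralogs went opposite ways. SCD, which makes oleate and palmitoleate, stood at 1372 CPM in hESC and at 421 CPM in NPC and was 3.26-fold lower (3.19 to 3.34). SCD5, a paralog with the same activity that is known mainly from primate brain, gave 55 reads in hESC and 3336 in NPC. This is 3.16 CPM against 123 CPM, or 38.4-fold higher (29.7 to 51.6). Since SCD5 passed the filter only through its NPC level, no lower call was possible for it. Per kb of longest transcript, SCD5 made up 0.397% of the SCD and SCD5 signal in hESC (0.299 to 0.516%) but 33.5% in NPC (32.7 to 34.4%). SCD was the more abundant paralog in both libraries, at 256 and 78.5 CPM per kb, against 1.02 and 39.5 CPM per kb for SCD5.

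The sequences before the starts of these paralogs are shown because the genes differed in opposite directions. They are the 250 bases before the RefSeq start in GRCh38.p14, and capitals mark each CCAAT (the box bound by NF-Y, a partner of SREBP) and GGGCGG (the box of Sp1) on either strand. The SCD stretch (chr10:100346983-100347232, plus strand) holds 2 CCAAT and 2 GGGCGG. The SCD5 stretch (chr4:82798797-82799046, minus strand) holds 1 CCAAT, on the opposite strand as ATTGG, and 4 GGGCGG.
SCD: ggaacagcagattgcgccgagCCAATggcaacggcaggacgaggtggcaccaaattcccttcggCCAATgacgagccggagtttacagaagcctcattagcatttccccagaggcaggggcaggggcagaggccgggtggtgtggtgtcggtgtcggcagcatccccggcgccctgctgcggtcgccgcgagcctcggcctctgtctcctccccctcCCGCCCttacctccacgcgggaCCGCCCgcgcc
SCD5: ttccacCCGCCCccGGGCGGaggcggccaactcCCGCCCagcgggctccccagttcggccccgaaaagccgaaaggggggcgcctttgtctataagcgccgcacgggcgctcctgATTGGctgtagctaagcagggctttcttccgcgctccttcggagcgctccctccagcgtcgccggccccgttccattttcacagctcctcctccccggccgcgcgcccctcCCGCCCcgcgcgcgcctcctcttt

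FADS1 and FADS2, the front-end desaturases of polyunsaturated fatty acids, stand head to head in the genome and were not called. FADS1 stood at 149 CPM in hESC and at 112 CPM in NPC (log2 ratio -0.41). FADS2 had 413 CPM and 258 CPM (log2 ratio -0.68). FADS1 made up 28.8% (27.8 to 29.7%) of their signal per kb in hESC and 32.8% (31.8 to 33.7%) in NPC. In the annotation exons of FADS1 and FADS2 overlap on opposite strands and FEN1, a nuclease gene that was 1.25 lower on the log2 scale, overlaps FADS2. The strand setting of the counts is not given in the sources used here, so reads of FADS1 and FADS2 in their overlap cannot be told apart. FEN1 lies on the same strand as FADS2, where a strand setting would not separate the reads.

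Elongases add carbon units to fatty acyl chains, and their makeup differed as well. ELOVL6, which elongates palmitate to stearate, stood at 80.7 CPM in hESC and at 21.7 CPM in NPC and was 3.71-fold lower (3.37 to 4.10). ELOVL2, which elongates long polyunsaturated chains on the way to docosahexaenoic acid, had 97 and 714 reads. Its level of 5.58 CPM in the hESC library was just above the filter, and it reached 26.2 CPM in NPC, 4.68-fold higher (3.80 to 5.88). Of the signal per kb of these elongase genes taken as a pair, ELOVL2 made up 10.04% in hESC (8.25 to 12.1%) but 66.1% in NPC (63.6 to 68.5%). ELOVL5, an elongase of polyunsaturated chains, was the most abundant of the 4 elongases in both libraries per kb, at 41.9 and 32.6 CPM per kb (129 and 100.3 CPM). ELOVL1, which acts on very long saturated chains, had 19.2 and 11.5 CPM. Neither was called.

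The stretches before the starts of this second diverging pair are given for comparison with SCD and SCD5, and capitals mark the same boxes. Neither contains CCAAT. The ELOVL6 stretch (chr4:110198616-110198865, minus strand) has 1 GGGCGG, and the ELOVL2 stretch (chr6:11044306-11044555, minus strand) has 4.
ELOVL6: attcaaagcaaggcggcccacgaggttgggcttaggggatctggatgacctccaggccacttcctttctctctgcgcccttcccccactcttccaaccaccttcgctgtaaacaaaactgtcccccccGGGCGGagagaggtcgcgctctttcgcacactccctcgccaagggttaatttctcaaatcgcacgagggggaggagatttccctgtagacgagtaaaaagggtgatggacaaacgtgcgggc
ELOVL2: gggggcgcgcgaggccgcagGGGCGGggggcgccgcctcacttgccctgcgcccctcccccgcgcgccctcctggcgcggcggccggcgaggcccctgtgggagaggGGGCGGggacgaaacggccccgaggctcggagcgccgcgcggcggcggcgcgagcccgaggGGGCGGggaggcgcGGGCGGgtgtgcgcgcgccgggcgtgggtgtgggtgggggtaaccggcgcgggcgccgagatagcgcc

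**Figure D2:**
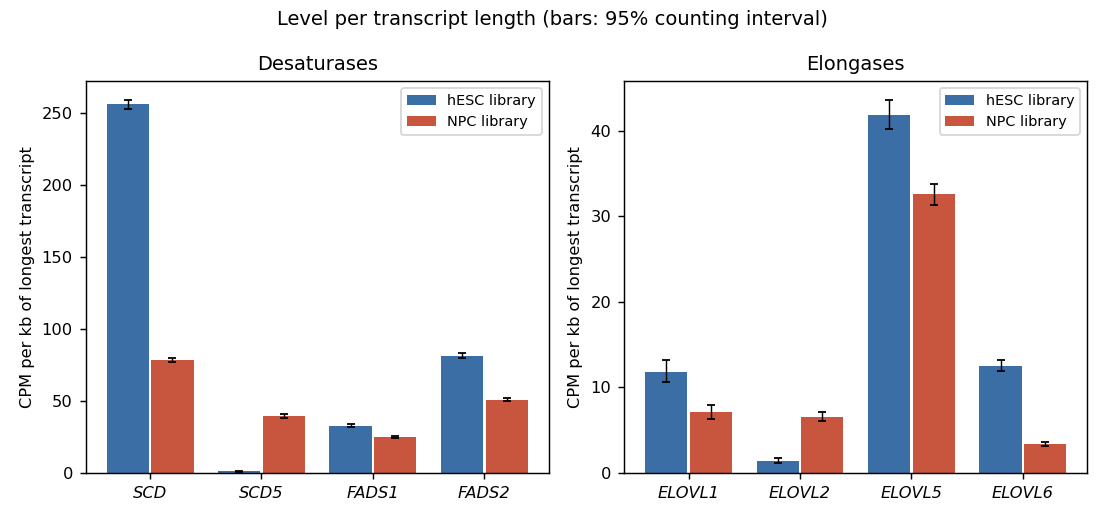
Level of 4 desaturase and 4 elongase genes in CPM per kb of longest transcript, in the hESC (blue) and NPC (red) libraries, with 95% Poisson counting intervals as error bars. SCD goes from 256 to 78.5 and SCD5 from 1.02 to 39.5, while ELOVL6 goes from 12.5 to 3.37 and ELOVL2 from 1.40 to 6.57.

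In the sterol route 4 of 18 enzyme genes were called lower (22.2%) and none higher, against 19.8% and 19.6% of all measured genes, so the share called lower was near that of all genes. A point ratio below 1 was found for 15 of the 18, against 7088 of all 13535 measured genes. The median log2 ratio of the 18 was -0.82, against -0.09 for all measured genes. The genes called lower were ACAT2, FDPS, FDFT1 and EBP, which lie at separate steps of the route.

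Among the genes that lead from acetyl-CoA to mevalonate and its diphosphate, ACAT2 differed most. ACAT2, the cytosolic thiolase that joins acetyl-CoA units, stood at 381 CPM in hESC and at 77.6 CPM in NPC and was 4.91-fold lower (4.68 to 5.16). Its exons overlap those of TCP1, a chaperonin gene on the opposite strand, which had 631 and 201 CPM and was called lower as well. Reads of ACAT2 and TCP1 cannot be told apart without strand. HMGCS1, the HMG-CoA synthase of the next step and a classical SREBP target, had 351 and 300.4 CPM, a log2 ratio of -0.22 (-0.27 to -0.18). The kinase gene MVK had 10.2 and 10.9 CPM, and the kinase gene PMVK had 25.8 and 29.6 CPM. MVK exons overlap those of MMAB on the opposite strand, a gene with 26.3 CPM in hESC and 36.1 CPM in NPC. Reads in the overlap of MVK and MMAB cannot be told apart without strand. MVD, the decarboxylase that yields isopentenyl diphosphate, had 591 and 440 reads. Its log2 ratio of -1.07 was past 2-fold, but the interval (-1.25 to -0.89) was not, so it was not called.

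From isoprenoid units to lanosterol all 5 genes had ratios below 1 and 2 were called. FDPS, the farnesyl diphosphate synthase gene, stood at 469 CPM in hESC and at 153 CPM in NPC, 3.06-fold lower (2.95 to 3.18). FDFT1, which encodes squalene synthase and so takes farnesyl units into the sterol branch, had 521 and 183 CPM, 2.84-fold lower (2.75 to 2.94). FDPS has an overlapping antisense gene, RUSC1-AS1, that was lower too (81.8 and 27.2 CPM), and a copy, FDPSP2, with 4.66 and 8.75 CPM. The oxidation and cyclisation of squalene differed less. SQLE, squalene epoxidase, had 128 and 90.4 CPM, and LSS, lanosterol synthase, had 130 and 73.0 CPM. IDI1, the isopentenyl diphosphate isomerase gene, had 62.6 and 47.3 CPM.

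The 8 genes that turn lanosterol into cholesterol were between 0.20 and -1.53 on the log2 scale, and 1 was called. EBP, a sterol isomerase gene, stood at 58.3 CPM in hESC and at 20.2 CPM in NPC and was 2.88-fold lower (2.60 to 3.21). With the trend of the ratio with transcript length removed, its log2 ratio was -1.14 (-1.29 to -0.99) and the call was lost. DHCR7, the reductase gene of the final step in one branch, had 68.6 and 31.8 CPM. Its log2 ratio of -1.11 (-1.24 to -0.98) missed the rule narrowly, and it was called lower with DESeq2 size factors. CYP51A1, the lanosterol demethylase gene, had 139 and 107 CPM. MSMO1, NSDHL, HSD17B7 and SC5D, which remove methyl groups, reduce ketones or desaturate the ring, had log2 ratios of -0.79, -0.86, -0.93 and -0.80. Their levels were 58.1, 32.8, 44.9 and 70.2 CPM in hESC and 33.5, 18.1, 23.6 and 40.3 CPM in NPC, in the same order. TM7SF2, a sterol reductase gene, had 21.2 and 24.3 CPM and was the sole gene of this step with a ratio above 1. VPS51, whose exons overlap TM7SF2 on the same strand, had 55.9 and 33.2 CPM, and reads of the overlap cannot be assigned by strand. For HSD17B7, reads of its copy HSD17B7P2 (83 and 79 reads) are uncertain.

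The stretches before FDPS (chr1:155308616-155308865, plus strand) and EBP (chrX:48521558-48521807, plus strand) are shown as those of genes called lower at separate steps of the sterol route. Each has 3 CCAAT and 1 GGGCGG on either strand, in capitals, where ATTGG and CCGCCC are these boxes on the opposite strand.
FDPS: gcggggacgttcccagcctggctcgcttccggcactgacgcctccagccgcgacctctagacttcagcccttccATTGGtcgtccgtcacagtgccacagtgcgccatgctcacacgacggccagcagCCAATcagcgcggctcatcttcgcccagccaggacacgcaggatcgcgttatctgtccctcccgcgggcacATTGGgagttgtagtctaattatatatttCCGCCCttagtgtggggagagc
EBP: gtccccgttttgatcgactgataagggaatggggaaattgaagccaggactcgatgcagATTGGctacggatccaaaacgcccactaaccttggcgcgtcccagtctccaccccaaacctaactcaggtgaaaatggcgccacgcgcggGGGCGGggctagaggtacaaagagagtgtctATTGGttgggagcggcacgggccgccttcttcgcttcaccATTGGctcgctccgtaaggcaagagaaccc

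**Figure D3:**
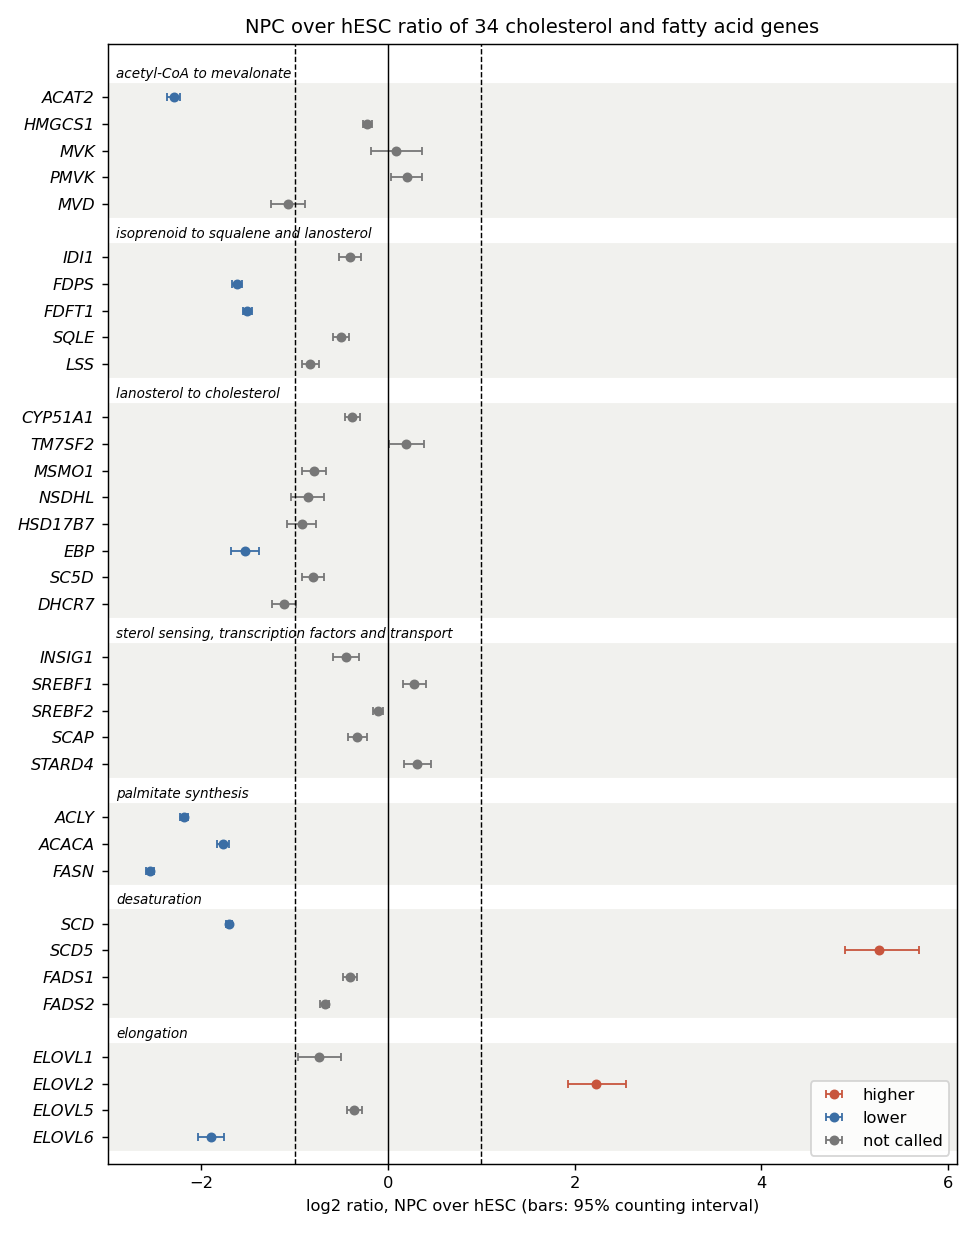
Log2 ratio, NPC over hESC, of the 34 genes by pathway step, with 95% counting intervals as bars and dashed lines at 2-fold. The 3 palmitate synthesis genes lie between -2.55 and -1.76, the 5 regulator and carrier genes between -0.45 and 0.31, and SCD5 and ELOVL2 lie at 5.26 and 2.23.

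None of the sterol sensors, SREBP genes or the sterol carrier gene was called. SREBF2, whose product mainly drives the sterol genes, stood at 278 CPM in hESC and at 258 CPM in NPC (log2 ratio -0.11, interval -0.16 to -0.05). SREBF1, whose product leans towards fatty acid genes, had 50.6 and 61.5 CPM (log2 ratio 0.28, interval 0.16 to 0.40). Both counting intervals lay well within 2-fold, but they do not cover the choice of scaling. With library totals the log2 ratios were 0.25 for SREBF2 and 0.64 for SREBF1, outside these intervals. SREBF1 made up 18.2% (17.2 to 19.3%) of their signal per kb in hESC and 22.6% (21.7 to 23.5%) in NPC. RAI1, whose exons overlap SREBF1 on the opposite strand, had 3.51 and 52.1 CPM and was called higher. Reads in the overlap of SREBF1 and RAI1 cannot be told apart without strand, which the SREBF1 intervals do not cover. SCAP, the escort of SREBP proteins, had 85.03 and 67.8 CPM. INSIG1, which retains SCAP and is itself an SREBP target, had 806 and 925 reads (log2 ratio -0.45, interval -0.59 to -0.31). STARD4, a soluble sterol carrier gene, had 34.5 and 42.9 CPM. Its antisense partner STARD4-AS1 had 56.0 and 142 CPM and was called higher, and reads in their overlap likewise cannot be told apart. The mRNA level of SREBF1 and SREBF2 does not measure how much of their protein was processed.

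The stretch before SREBF2 (chr22:41832855-41833104, plus strand) is shown because, among the 30 of 34 genes with a window, no other holds TCACNCCAC, the core of the sterol regulatory element. This match begins 133 bases before the start and reads TCACCCCAC. The other capitals are 1 CCAAT, as ATTGG, and 2 GGGCGG.
SREBF2: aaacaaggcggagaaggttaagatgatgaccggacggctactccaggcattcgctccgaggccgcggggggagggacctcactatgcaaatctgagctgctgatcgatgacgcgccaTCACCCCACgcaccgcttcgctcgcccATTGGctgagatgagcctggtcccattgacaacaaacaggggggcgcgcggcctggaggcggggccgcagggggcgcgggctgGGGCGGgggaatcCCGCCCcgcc

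Promoter windows of these genes were searched for the same boxes and for the sterol element, which differ in length and so in how often they occur anywhere. RefSeq windows of 300 bases, from 250 before to 50 after a start, were found for 30 of the 34 genes (39 windows, some of them overlapping windows of 1 gene). ACAT2, FASN, FDFT1 and SQLE had none in the table. Each motif was searched on both strands and overlapping matches were counted. CCAAT was in 27 of the 39 windows (69.2%), against 34.6% of all 35116 windows and 34.6% of the 14890 windows of measured genes. Windows of 1 gene are not independent. Counted by gene, 23 of the 30 had CCAAT in some window, against 4377 of 10039 measured genes. At least 2 matches were in 43.6% of the windows, against 11.9% for measured genes. GGGCGG was in 87.2%, against 65.0% for measured genes, and TCACNCCAC in 1 of 39 (2.56%), against 1.11%. NSDHL and MVK had most CCAAT matches, with 5 each. The 7 genes without CCAAT in any window were PMVK, SCAP, ELOVL6, ELOVL2, CYP51A1, FADS1 and SREBF1, of which 1 was called lower, 1 higher and 5 not at all. Over all measured genes 39.4% were called either way, and 7 genes are too few to set against that share. A match in such a window is a description of its letters.

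Levels of different genes can be compared per kb of longest transcript only. The intervals given here cover counting error and not the choice of transcript length, on which the order of different genes also depends. In the hESC library ACLY (270 CPM per kb, interval 266 to 274), SCD (256, 253 to 259), FDPS (232, 227 to 238), FDFT1 (196, 191.95 to 200.04) and FASN (155, 153 to 157) led the 34 genes, and the intervals of these neighbours did not overlap. In the NPC library the order was HMGCS1 (85.7, 83.8 to 87.6), SCD (78.5, 77.0 to 79.9), FDPS (75.9, 73.7 to 78.3), FDFT1 (68.9, 67.0 to 70.8) and ACLY (59.4, 58.0 to 60.8), and SCD and FDPS did not differ beyond counting error. FASN was at percentile 96.4 of the measured genes per kb in hESC and 84.3 in NPC. SCD5 went from percentile 10.5 to 90.01, ELOVL2 from 14.1 to 45.5 and ELOVL6 from 63.6 to 25.5. MVK was among the lowest in both, at 2.49 and 2.65 CPM per kb, while PMVK was at 20.1 and 23.1 CPM per kb. Of the 34 genes, 8 stood above percentile 90 in the hESC library and 8 in the NPC library.

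**Figure D4:**
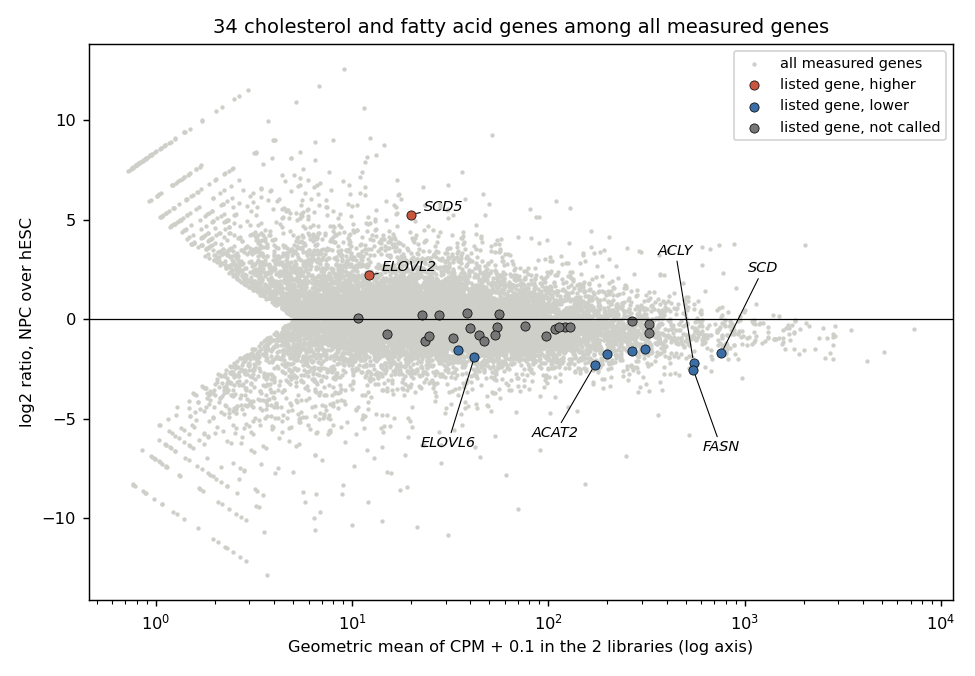
Log2 ratio, NPC over hESC, against the geometric mean of CPM + 0.1 (log axis) for all 13535 measured genes (grey) and the 34 genes (larger points, by call). FASN, ACLY and SCD lie below 0 towards the right end, and SCD5 and ELOVL2 lie above 0 at a lower mean level.

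Genes that feed the route or use its products were listed beside the 34 genes, and their counts stand against 19.8% lower and 19.6% higher over all measured genes. Of 16 measured genes that supply acetyl-CoA and NADPH, 4 were lower (25%) and 1 higher, with a median log2 ratio of -0.86. The cytosolic isocitrate dehydrogenase gene IDH1 had 567 and 112 CPM, 5.07-fold lower (4.87 to 5.28), and DLAT, a pyruvate dehydrogenase subunit gene, was 3.16-fold lower (2.91 to 3.44). The mitochondrial acetyl-CoA synthetase gene ACSS1 was 2.93-fold higher (2.14 to 4.16), a gene measured through its NPC level alone. Of 16 other measured fatty acid synthesis genes 5 were lower (31.2%) and 1 higher (median -0.70), and 2 of the lower genes, ELOVL7 and HACD1, were measured through hESC alone. The lower genes included CYB5A, the gene of a cytochrome that passes electrons to desaturases, at 4.40-fold (4.01 to 4.84), and ELOVL7, at 6.61-fold (4.27 to 10.96). ACACB, the gene of the mitochondrial carboxylase whose product restrains fatty acid oxidation, was 2.69-fold higher (2.31 to 3.15), against the lower ACACA. Of 14 genes that use isoprenoids 3 were lower (21.4%) and none higher (median -0.84), with PDSS1 of ubiquinone synthesis 3.63-fold (3.01 to 4.39) and the methyltransferase gene ICMT 2.88-fold lower (2.66 to 3.11).

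Sterol handling outside synthesis went both ways. For 14 further genes of sterol sensing and SREBP processing the median log2 ratio was -0.04, and none was called lower. In the list of sterol export and LXR (oxysterol receptor) genes the calls were 4 higher and 3 lower among 11 measured (median -0.06). The filter fixed the direction of 3 of these calls, since CYP46A1 and CYP27A1 were measured through NPC alone and APOC1 through hESC alone. The exporter gene ABCA1 had 34.7 and 121 CPM, 3.47-fold higher (3.19 to 3.80). The neuronal cholesterol hydroxylase gene CYP46A1 had 3 and 153 reads, a ratio of 28.03 (10.9 to 160). The apolipoprotein gene APOE had 871 and 9.26 CPM, 93.8-fold lower (83.0 to 107), and APOC1 was 27.2-fold lower (18.7 to 42.8). Of 19 measured genes of sterol uptake and transport 3 were higher, GRAMD1C through its NPC level alone, and 4 lower (median -0.40). SCARB2 and GRAMD1C were 3.74-fold (3.51 to 3.99) and 5.98-fold higher (3.67 to 11.03), and GRAMD1A and SCARB1 were 3.11-fold (2.93 to 3.31) and 2.73-fold lower (2.44 to 3.07).

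**Figure D5:**
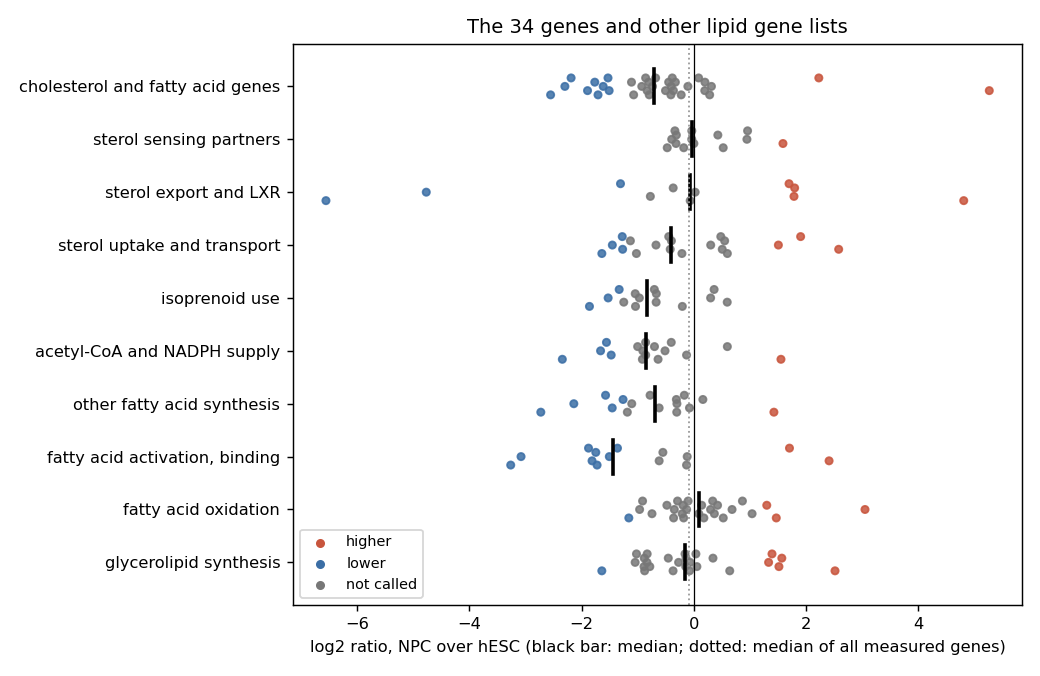
Log2 ratio, NPC over hESC, of the measured genes of each lipid list (points, coloured by call), with the median of the list as a black bar and the median of all measured genes, -0.09, as a dotted line. The median of the 34 genes is -0.71, that of fatty acid activation and binding genes -1.43 and that of fatty acid oxidation genes 0.09.

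The libraries also differed in cell type markers, and their part in the values above was not tested. Many markers reached 5 CPM in 1 library alone, which fixed the direction of their calls. As a check of the labels, the pluripotency gene POU5F1 stood at 1259 CPM in hESC and at 0.662 CPM in NPC, and the neural gene PAX6 had 1.04 and 83.4 CPM. All 10 pluripotency markers were lower (summed CPM 8523 and 37.5), with ZSCAN10 at 0 reads in the NPC library. Of 10 measured neural progenitor markers 9 were higher (776 and 6422 CPM), and of 10 neuron markers 7 were higher and 1 lower (398 and 1933 CPM). Stroma and fibroblast markers were higher at 6 and lower at 2 of 9 measured genes (774 and 1028 CPM). FAP, at 0 reads in hESC and 80 in NPC, did not reach the filter. Astroglia markers were higher at 3 and lower at 2 of 6 (824 and 728 CPM). Oligodendrocyte markers were higher at 1 and lower at 1 of 5 (169 and 142 CPM). MAG, at 8 reads in hESC and 0 in NPC, did not reach the filter. Markers of hepatocytes and adipocytes, cells rich in lipid synthesis, summed to 35.3 and 52.8 CPM, with 2 of 4 measured genes higher and 2 lower. PLIN1 (0 reads in hESC and 13 in NPC), CIDEC (0 and 1) and FABP4 (1 and 0) did not reach the filter. Reads of mouse feeder origin were not analysed here.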

How the data were processed

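The values deposited by the authors are whole-number counts of reads for each gene symbol in each library, not normalized. TopHat, edgeR and hg19 are named in the submitters' processing notes, with no role. For the counting tool, its strand setting, annotation and multi-mapping reads, the sources used here give nothing.

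The hESC library totalled 19686728 counts and the NPC library 24065750, on 25737 rows. For 286 symbols on several rows the row with most summed reads was kept. TMM factors (edgeR 4.0.16, R 4.3.3) were 0.884 and 1.13. A gene at 5 CPM rested on 86.9 and 136 reads. Ratios had 0.5 added to each count, with Clopper-Pearson 95% intervals for the fraction of a gene's reads that came from NPC. They cover counting error only, and PCR copies were not marked by molecular identifiers. Shares and levels per kb used the longest GENCODE 29 transcript, found for 94.8% of measured genes and all 34 described. Which transcripts were expressed was not examined, and the intervals on shares and levels per kb do not cover this choice. No p-value was computed. The code was tested on simulated counts.

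The genes and the 16 lists beside them were chosen with earlier results of these data known. Named from each list were up to 2 higher and 2 lower genes with the farthest near bound. One gene taken by this rule is not reported here. Other genes named (partners, copies, those at 0 reads or past the filter in 1 library alone) were chosen after their values were seen. Alternatives were library totals, DESeq2 1.42.0 size factors, upper-quartile factors, other filters and size rules, mitochondrial and ribosomal protein genes removed, summed rows, log2(CPM + 1) and a length trend (lowess, statsmodels 0.14.6, fraction 0.5). A planned comparison of paralog protein sequences was not run. Calculations ran in Python 3.11.15 with scipy 1.17.1, numpy 2.4.6 and pandas 2.3.3.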

Additional observations from a re-analysis of the deposited data

How the results depend on the processing

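The 9 lower and 2 higher calls were made with every scaling alternative, filter and row rule run, with DHCR7 lower in addition with DESeq2 size factors and without EBP when the trend with transcript length was removed. The point ratio of 2-fold added MVD and DHCR7. With library totals the median log2 ratio of the 34 genes was -0.35. With a bound of 4-fold 1 of the 34 genes was higher and 3 were lower (1236 and 983 over all genes). With a bound of 1.5-fold 17 were lower (4137 over all genes). The filter at 20 CPM left 1684 higher genes. These counts follow from the size rule or from fewer genes tested. Single ratios moved out of their counting interval for 33 of 34 genes with totals and for 24 with the length trend removed, and no called gene changed direction. Across the 34 genes the ratio had a Spearman's rho of -0.05 with transcript length, against 0.21 over all measured genes. These are across genes, which are not independent replicates. No paired analysis was possible because each group had 1 library.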

Other observations

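Of 14 measured genes that bind and activate fatty acids 8 were called lower and 2 higher, against 19.8% and 19.6% of all measured genes. The filter fixed the direction of 5 of the 8 lower calls (FABP3, SLC27A2, SLC27A3, SLC27A5 and SLC27A6), which reached 5 CPM in hESC alone, so neither this count nor the median log2 ratio of -1.43 is support for a lower list. The fatty acid binding protein gene FABP5 stood at 519 CPM in hESC and at 54.1 CPM in NPC, 9.59-fold lower (9.07 to 10.1), and FABP3 was 8.44-fold lower (6.93 to 10.4). FABP7, the binding protein gene of radial glia, had 22.1 and 118 CPM, 5.31-fold higher (4.78 to 5.93), and is also in the neural progenitor list. The transporter gene SLC27A1 was 3.26-fold higher (2.60 to 4.16).

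Fatty acid oxidation and glycerolipid genes had medians close to that of all genes. Among 27 measured oxidation genes the median log2 ratio was 0.09, with 3 called higher and 1 lower. CPT1B, a carnitine palmitoyltransferase gene, had 2.82 and 23.6 CPM, 8.28-fold higher (6.25 to 11.4) and measured through NPC alone, the nuclear receptor gene PPARA was 2.77-fold higher (2.28 to 3.40) and the thiolase gene ACAA2 was 2.23-fold lower (2.12 to 2.35). Of 26 glycerolipid genes 5 were higher and 1 lower (median -0.15). AGPAT3 and LPIN2 were 5.72-fold (4.86 to 6.81) and 2.86-fold higher (2.54 to 3.24), and AGPAT2, an acyltransferase gene like AGPAT3, was 3.11-fold lower (2.65 to 3.67).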
